A study of Homo sapiens with 4 samples.

Results

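The comparison set 2 libraries of NCI-H1048 cells, each made with a different guide RNA (gRNA) against COLCA2, against 1 library made with a non-targeting gRNA. It took 3 of the 4 libraries of the series. NCI-H1048 is a human cell line established from a small cell lung cancer, and poly(A)-selected RNA was sequenced. The labels give the genotype as COLCA2 knockout for both COLCA2 libraries and as WT for the non-targeting library, and the treatment as NA in each. Whether the cells were edited pools or single clones is not given in the sources used here. The fourth library, made with a gRNA against POU2F3, entered only the expression minimum and is quoted where its level stands beside those of the COLCA2 libraries.

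COLCA2, also called POU2AF3, and its neighbour C11orf53, also called POU2AF2, encode coactivators of POU domain transcription factors, related to the B cell coactivator OCA-B (POU2AF1). They bind a POU factor on DNA that carries the octamer motif ATGCAAAT. Their partner POU2F3 is the factor that sets the identity of tuft cells, rare chemosensory cells of epithelia that use taste-type signalling, make eicosanoids and carry a blunt tuft of microvilli. A subtype of small cell lung cancer expresses POU2F3 and tuft cell genes in place of the neuroendocrine program.

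Reads of the same gene symbol were summed, and a gene was tested where its mean over the 4 libraries was at least 20 normalized counts, which left 14940 of 35979 symbols. "Tested" means here only that a gene reached this minimum. A gene is called lower or higher only where both COLCA2 libraries differed from the non-targeting library at least 2-fold on the log2(normalized count + 1) scale. "Rose" and "fell" are used of such genes only. A phrase such as "from 95.5 to 3558 and 4079" gives the normalized count with the non-targeting gRNA, then with COLCA2 gRNA 1 and gRNA 2. A log2 ratio written with ± is the mean over the COLCA2 guides and their SD (n = 2). The control is 1 library, so no difference from it has a replicate check and no p-value is given. Fewer cells of a type and less RNA per cell cannot be told apart in bulk RNA.

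Promoter sequences of 4 called genes show what the octamer and a second motif looked like in place. They are the 150 bases just before the gene's start in RefSeq (GRCh38.p14). The bases run 5′ to 3′ on the strand of the gene, with the motif in capitals. For FGF12 that start lies within the gene's span in GENCODE (chr3:192139395-192767764). The last bases printed for HMX2 and CPA4 also lie within their GENCODE spans, which begin at 123148122 and 130293134. HMX2 (chr10:123147986-123148135, plus strand), a homeobox factor of tuft cells, SUCNR1 (chr3:151873493-151873642, plus strand), the succinate receptor of tuft cells, and FGF12 (chr3:192727542-192727691, minus strand), an intracellular FGF that modulates sodium channels, all fell and carry the octamer ATGCAAAT. SUCNR1 carries it at 2 places, 60 and 47 bases before the start. CPA4 (chr7:130293011-130293160, plus strand), a carboxypeptidase, had a rise among the largest and carries 2 matches to the AP-1 motif TGANTCA. The 4 genes were picked for a fall with the octamer or a rise with the AP-1 motif, so that match is no result. Among the promoters searched below, the octamer lay in 11 of 204 of genes that fell and in 9 of 619 of genes that rose.
HMX2: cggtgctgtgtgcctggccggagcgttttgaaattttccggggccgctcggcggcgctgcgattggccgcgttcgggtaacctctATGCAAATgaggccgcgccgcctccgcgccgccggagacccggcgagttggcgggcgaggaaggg
SUCNR1: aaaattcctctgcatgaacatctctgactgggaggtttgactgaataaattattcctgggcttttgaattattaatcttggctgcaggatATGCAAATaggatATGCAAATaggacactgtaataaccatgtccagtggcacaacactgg
FGF12: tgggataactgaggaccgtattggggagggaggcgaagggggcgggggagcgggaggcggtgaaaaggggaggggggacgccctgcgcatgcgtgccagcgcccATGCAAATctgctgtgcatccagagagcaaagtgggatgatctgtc
CPA4: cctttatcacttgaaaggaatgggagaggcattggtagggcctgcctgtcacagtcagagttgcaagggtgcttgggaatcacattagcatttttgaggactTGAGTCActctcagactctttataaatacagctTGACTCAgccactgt

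Before the results, 1 feature of the libraries bears on all of them. The median absolute log2 difference over genes was 0.13 between the COLCA2 libraries and 0.18 and 0.17 between each of them and the POU2F3 gRNA library, but 0.26 and 0.27 between each COLCA2 library and the non-targeting one. The POU2F3 gRNA library differed from the non-targeting library by 0.24. The only control thus stood apart from all 3 other libraries, and a peculiarity of that library cannot be told apart from an effect of the guides. The recovered reads, whole-number counts that may be rounded estimates, numbered 21587741 to 25435970 in the 3 libraries compared. The median ratio of all genes was -0.0086.

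The targeted gene itself was not 2-fold lower. COLCA2 (chr11:111298555-111308735, plus strand) went from 5585 to 3119 and 3541. These levels were 55.8% (95% exact interval 53.4 to 58.4, counting error only) and 63.4% (60.7 to 66.3) of the non-targeting level. Both guides lay below the control, but the mean ratio of -0.75 ± 0.13 missed the threshold. An edited gene can still be transcribed, so its RNA level does not check the genotype that the labels give.

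The partner factor and the second coactivator were both called lower. POU2F3 (chr11:120236640-120319944, plus strand) fell from 14602 to 3677 and 2351, which is 25.2% (24.3 to 26.1) and 16.1% (15.4 to 16.9) of the control. C11orf53, whose lower end lies at -52.8 kb from that of COLCA2 on chromosome 11, fell from 1853 to 554 and 499. The POU2F3 gRNA library, read against the same control, held 1449 of POU2F3, 195 of C11orf53 and 1393 of COLCA2. For all 3 genes the COLCA2 libraries lay between that library and the non-targeting one. Of the relatives, POU2AF1 went from 90.7 to 102 and 81.1 and POU2F1, a widely expressed octamer-binding factor, from 1416 to 858 and 1014, neither of which was called. POU2F2 lay below the minimum.

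Within 1 Mb of COLCA2, 21 genes were tested, COLCA2 itself among them, of which C11orf53 fell and 2 rose. Over all genes 2.02% fell and 5.79% rose. CRYAB, a small heat shock protein, rose from 21.0 to 99.5 and 112, and the cytokine gene IL18 from 11.5 to 218 and 225. They lie 610.0 and 845 kb above COLCA2, and the median ratio of the 21 genes was -0.099. The plot of ratios by distance shows C11orf53 as the single called fall.

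**Figure D1:**
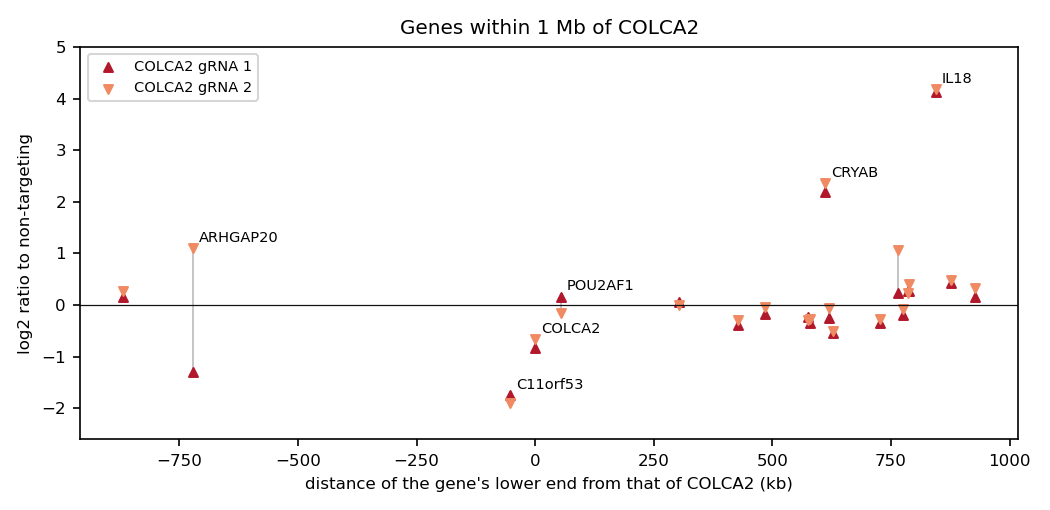
Log2 ratio of each COLCA2 library to the non-targeting library (y axis) for the 21 tested genes within 1 Mb of COLCA2, by distance in kb between their lower genome ends (x axis); triangles pointing up are gRNA 1, triangles pointing down gRNA 2. C11orf53 is below -1 with both guides, CRYAB and IL18 are above 1 with both, and the guides differ in direction for ARHGAP20.

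Across the genome, more genes rose than fell. Of 14940 genes, 302 fell with both guides (2.02%) and 865 rose with both (5.79%). At 4-fold the counts were 44 and 346, and at 16-fold 2 and 77. The 2 falls, AC217785.1 and AL669918.1, were listed at 0 with both guides and are named here for that reason. The median level in the control was 333 normalized counts for the genes that fell and 69.7 for those that rose, which the minimum and the call against this control fix in part. A gene scarce in the control reached the minimum only through libraries where it was high, so it had to differ. For the lists with many rises the count is therefore given also for the members with at least 20 normalized counts in the control. No share of all genes was taken at that control minimum, so these counts have no like share beside them. All list counts are descriptions, and those over tested genes are to be read beside 2.02% lower and 5.79% higher of all genes. Protein-coding genes made up at least 274 of the falls and at least 816 of the rises. Genes whose identifier had no matched gene type, ALOX5 among them, were not counted here.

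The gap between the guides was smaller than the smaller of their changes in 292 of the 302 falls and 860 of the 865 rises, a count that the call rule itself favours. Calls were more frequent among scarce genes: 4.49% of genes with a mean of 20 to 100 fell and 10.2% rose, against 0.779% and 3.57% of genes with a mean of 1000 or more. The median SD between the guides was 0.24 in the scarce class and 0.061 in the abundant class. In the plot of ratio against control level, COL2A1 lies at the right, among the most abundant transcripts.

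**Figure D2:**
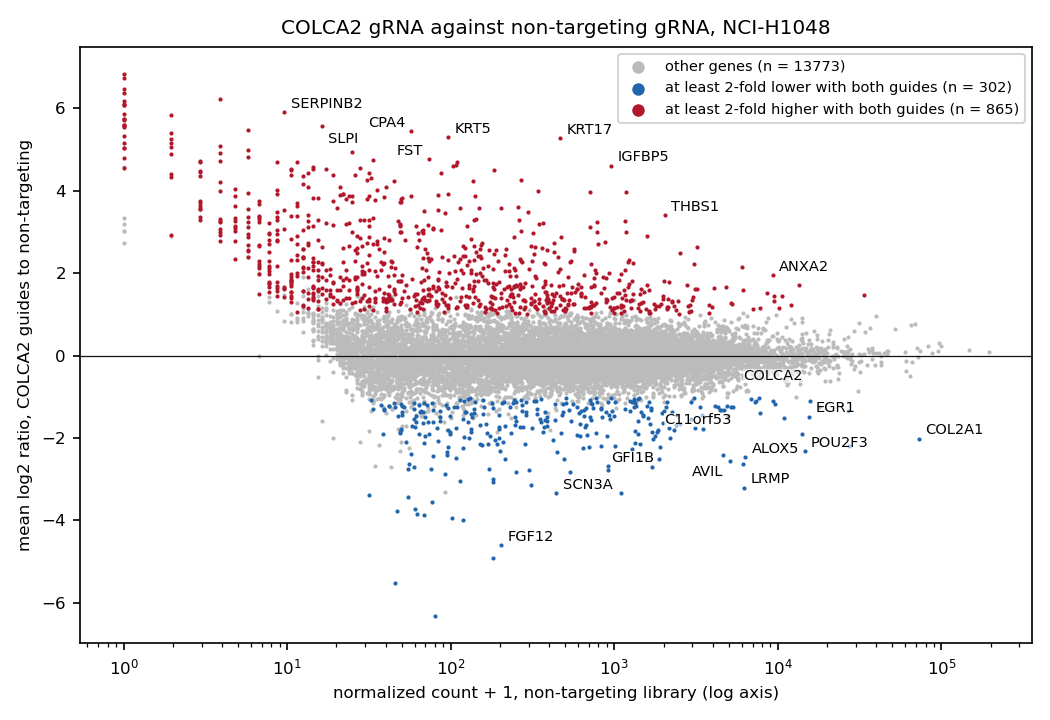
Mean log2 ratio of the COLCA2 libraries to the non-targeting library (y axis) against the normalized count plus 1 in the non-targeting library (x axis, log scale) for 14940 genes; 302 genes at least 2-fold lower with both guides are blue and 865 at least 2-fold higher are red. COLCA2 lies in the grey band, while POU2F3, C11orf53, LRMP and AVIL lie below it.

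Tuft cell transcription factors moved unevenly. All 10 listed factors were tested, and 3 fell, 1 rose and 6 were not called, beside 2.02% lower and 5.79% higher of all genes. Their median ratio was -0.78. GFI1B, a zinc finger repressor of the tuft lineage, fell from 1899 to 520.5 and 315. HMX2 fell from 1684 to 749 and 606. SOX9, an abundant progenitor factor, fell from 17848 to 8463 and 6645. ASCL2, a bHLH factor expressed in the POU2F3-positive subtype of this tumour, went from 458 to 228 and 242, just short of the threshold. HMX3 stood at ratios of -0.89 and -1.14 and passed with gRNA 2 only. RUNX1, a factor with wider roles, rose from 891 to 2259 and 2324. The ratios of EHF, SPIB and GFI1 lay between -0.65 and -0.29 with either guide, and TCF7L2 was the other factor with a mean ratio above 0.

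Taste-type signalling genes held 6 falls and no rise among 14 tested of 21 listed, a share to be read beside the 2.02% of all genes. LRMP, an endoplasmic reticulum protein that binds the inositol trisphosphate receptor in taste and tuft cells, fell from 6229 to 809.7 and 562, a ratio of -3.20 ± 0.37. RGS21, a regulator of G protein signalling found in taste cells, fell from 910.0 to 178 and 112, and RGS13, another regulator of the family, from 2518 to 879 and 719.7. Each of these lay below the control with both guides and lower with gRNA 2 than with gRNA 1. SUCNR1, whose promoter is printed above, fell from 206 to 64.3 and 35.3. The adaptor gene SH2D6 fell from 172 to 54.9 and 35.3, and GNAT3, the gustducin alpha subunit, from 159 to 73.6 and 58.8.

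The other 8 tested members of that list were not called. ITPR1, an inositol trisphosphate receptor, went from 308 to 509 and 514, and ITPR2 from 727 to 929 and 1586, above the control with both guides. PLCB2 lay above the control with gRNA 1 and below it with gRNA 2. TRPM5, the cation channel that defines taste-type transduction, stood at 1.91 normalized counts in the control and CHAT, the acetylcholine-making enzyme, at 10.5, both below the minimum. FFAR3 was at 0 in all libraries. The list median was -0.89 over the tested members and -0.70 over all 21.

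In the eicosanoid pathway the genes of 2 early steps fell and most others were not called. PLA2G4A, the cytosolic phospholipase that frees arachidonic acid, fell from 3497 to 1189 and 879.7. ALOX5, the 5-lipoxygenase that starts leukotriene synthesis, fell from 6311 to 1261 and 1046 over the sum of its 2 rows. LTA4H, the leukotriene A4 hydrolase, went from 1993 to 1899 and 1909 and PTGS2, the inducible cyclooxygenase, from 250.2 to 202 and 248. PTGES, a prostaglandin E synthase, rose from 30.6 to 137 and 127. Of 12 tested genes 2 fell and 1 rose, beside 2.02% and 5.79% of all genes. The list median was -0.074, so the list as a whole lay near the median of all genes.

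The microvillus list was split as well. AVIL (advillin), an actin-bundling protein of tuft cells, fell from 5093 to 990.1 and 742, and ESPN (espin), another bundling protein, from 265 to 81.9 and 77.6. LCP1, a plastin, rose from 146 to 377 and 370.5. The membrane linker gene EZR stayed short of a 2-fold rise at 0.89 and 0.94. With 2 falls and 1 rise among 10 tested genes, beside 2.02% and 5.79% of all genes, the median was 0.0058.

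Receptors and kinases of tuft cells and haematopoietic cells gave 4 falls and no rise among 12 tested genes. Of all genes 2.02% fell and 5.79% rose, and the list median was -0.38. BMX, a TEC family kinase, fell from 771 to 273 and 162. DCLK1, the microtubule kinase often used to mark tuft cells, fell from 332 to 150.3 and 159.9. KIT, the stem cell factor receptor, fell from 3084 to 1527 and 1505, only just past 2-fold. Of the genes named here, KIT was the closest call and BMX had the widest gap between the guides.

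**Figure D3:**
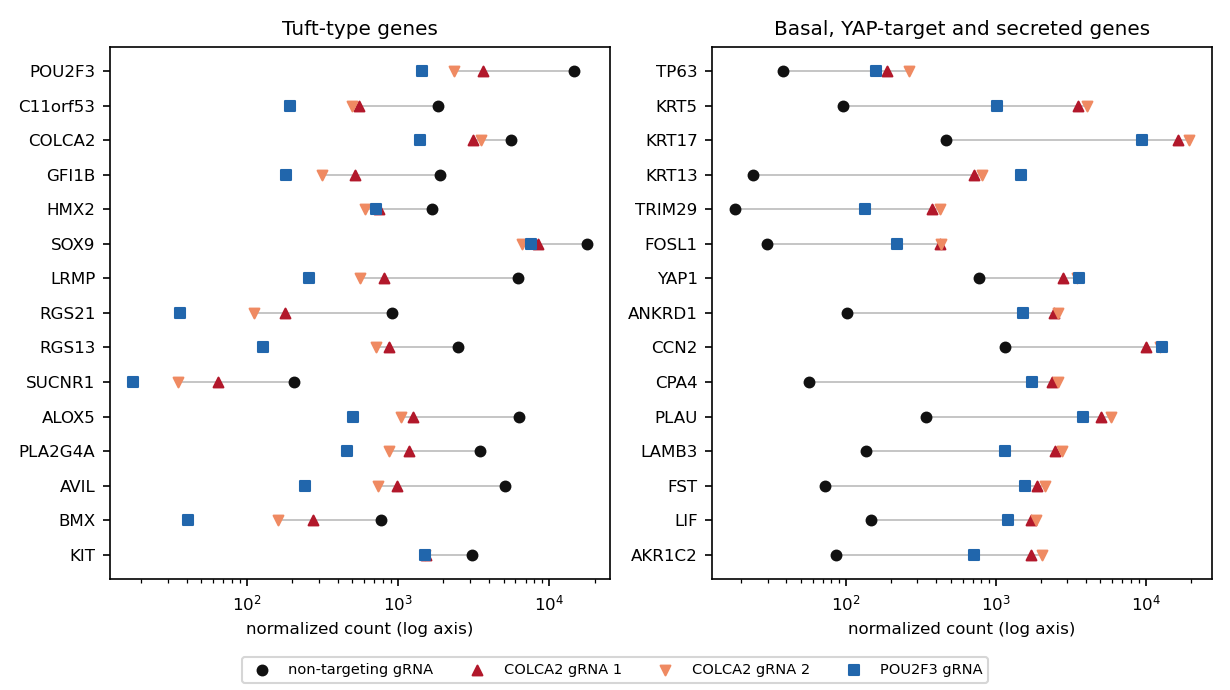
Normalized counts (x axis, log scale) of 15 tuft-type genes and 15 basal, YAP-target and secreted genes in each of the 4 libraries; black circles are the non-targeting gRNA, red and orange triangles COLCA2 gRNA 1 and 2, blue squares the POU2F3 gRNA. Grey lines span the 3 libraries compared. Every left-hand gene is lower and every right-hand gene higher with both COLCA2 guides than in the control, COLCA2 itself by less than 2-fold. The genes drawn were picked with results of these data known, so their shared directions are no result. RUNX1, PTGES and LCP1 of the tuft-type lists rose and are not drawn.

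Several of the largest falls lay outside these lists. FGF12 was read 211 times in the control, 19 times with gRNA 1 and 2 times with gRNA 2, and the last is 1.17% of the control (0.14 to 4.27). SCN3A, a neuronal sodium channel, fell from 441 to 52.9 and 34.1. PSD2, an exchange factor for ARF6, fell from 1094 to 136 and 85.9. MSTN (myostatin), a growth-restraining member of the TGF-beta family, fell from 1693 to 239 and 278. CRYM, a thyroid hormone-binding protein, fell from 6126 to 1121 and 866, and ENPP2 (autotaxin), which makes lysophosphatidic acid, from 4607 to 849 and 867. For MSTN and ENPP2 the guides lay close to each other and far below the control. HEPACAM2, a cell adhesion molecule of tuft cells, fell from 918 to 176 and 98.8. SLITRK6, a neuronal membrane protein, fell from 536 to 86.1 and 64.7.

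MPP7, a scaffold protein of cell polarity, was at 181 normalized counts in the control and 35.2 with gRNA 1. It was listed at 0 with gRNA 2. With gRNA 2 set at 3 reads, MPP7 was 51.4-fold lower, and the exact 95% upper limit was 2.41% of the control. PIK3R5, a regulatory subunit of the G protein-coupled PI3-kinase, fell from 179.5 to 30.1 and 14.1, and DGKI, a diacylglycerol kinase, from 171 to 19.7 and 30.6. MLIP, a muscle lamin-interacting protein, fell from 251 to 35.2 and 34.1. TMEM238L fell from 113 to 12.4 and 12.9. SMIM11B is a near-identical copy of another gene and its value is uncertain, though it fell from 310.4 to 45.6 and 25.9. The remaining genes among the 20 largest falls, PLPPR4, ADH1C and IGSF21, lay between -2.55 and -2.43 with gRNA 2.

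The abundant transcripts that fell include DPYSL3, a neuronal cytoskeletal protein, which fell from 27253 to 6334 and 5502. COL2A1, the main collagen of cartilage, fell from 72484 to 19853 and 16159. EGR1, an early growth response factor, fell from 15532 to 5864 and 5272. EGFR, the epidermal growth factor receptor, fell from 6803 to 3370.5 and 3155, just past the threshold. Its relative ERBB2 rose from 1093 to 2448 and 2634. FOXA1, a pioneer factor of endoderm, fell from 2953 to 1012 and 1026, and FOXI1, the ionocyte regulator, from 1721 to 498 and 359.9. Both guides gave a lower level than the control for each of these falls, and FOXI1 had the widest gap between the guides.

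HOX genes and amylases made 2 small groups. Of 33 tested HOX genes 5 fell and none rose, beside 2.02% and 5.79% of all genes, with a median of -0.50. HOXA2 fell from 245 to 89.2 and 64.7, HOXA3 from 1244 to 568 and 426 and HOXA4 from 229 to 89.2 and 105. HOXD13 fell from 739 to 292 and 319. All 3 tested amylase genes fell. AMY2A fell from 642 to 152 and 121, but the amylase genes are near-identical copies and the share of each is uncertain.

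Sodium channels held 2 falls, SCN3A and SCN9A, among 12 tested genes, and potassium channels 4 falls and 3 rises among 52, beside 2.02% and 5.79% of all genes. KCNQ3, which carries the M current, fell from 1336 to 372 and 249. Neuroendocrine genes differed widely in level in the control, where NEUROD1 stood at 2.86 normalized counts, CHGA was listed at 0 and NCAM1 (CD56) stood at 4129. Of 12 tested genes of that list 2 fell and 3 rose, beside 2.02% and 5.79% of all genes. Among the 10 with at least 20 in the control, 2 fell and 1 rose. INSM1, a neuroendocrine zinc finger factor, fell from 118 to 23.8 and 24.7, and NCAM1 from 4129 to 1765 and 1797. The granule gene SCG5 rose from 30.6 to 95.4 and 103.

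Genes of basal and squamous epithelium were among the largest rises. Of 24 listed genes 15 were tested, 11 rose and none fell, beside 5.79% of all genes. Among the 11 with at least 20 normalized counts in the control, 8 rose. The tested members had a median of 3.57 against 2.53 over all 24. The summed level of the list was 2027 normalized counts in the control and 29243 and 34098 with the COLCA2 guides. KRT17 alone gave 467, 16567 and 19594 of these sums. The rises of KRT17, KRT5, KRT13, KRT15, KRT6A, KRT6B and KRT14 are counted here and again among the keratins, so the lists overlap. TP63, the master factor of basal cells, rose from 38.2 to 188 and 265. KRT5, the basal keratin, rose from 95.5 to 3558 and 4079, a ratio of 5.30 ± 0.14. TRIM29, a basal cell marker, rose from 18.1 to 376 and 421, and the desmosomal cadherin gene DSG3 from 49.7 to 124 and 139.9. In each case both guides lay above the control, by more than they differed from each other.

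The late squamous markers IVL and SPRR3 were scarce in the control. IVL (involucrin) went from 2.86 to 18.7 and 24.7 and SPRR3 from 0 to 4.15 and 1.18, and the mean of both genes lay below the minimum. NGFR, a basal stem cell receptor, stood at 11.5 in the control and at 7.26 and 12.9 with the guides. SPRR2A, a cornified envelope gene outside the list and named after its value was seen, fell from 106 to 42.5 and 22.3.

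Most of the keratin genes that reached the minimum rose. Of 55 keratin genes 23 were tested, 21 rose and none fell, beside 5.79% and 2.02% of all genes. Among the 19 with at least 20 normalized counts in the control, 17 rose. KRT17 rose from 467 to 16567 and 19594, a ratio of 5.27 ± 0.17. The simple-epithelial keratins KRT8 and KRT18 rose as well, KRT8 from 2529.6 to 13262 and 14980.4 and KRT18 from 4819.5 to 14242 and 16181. KRT13 rose from 23.9 to 719.5 and 815, and its level of 1475 in the POU2F3 gRNA library was higher than in both COLCA2 libraries. KRT7 and KRT10 were the tested keratins that were not called, at 0.49 ± 0.055 and 0.78 ± 0.077. The median was 3.57 over the tested genes, 3.46 with KRT34, which was listed at 0 in the control, at its bound, and 1.66 over all 55. KRT6A and KRT6B resemble each other closely, as do KRT14, KRT16 and KRT17. Reads can be split within each of these groups, so the value of each gene is uncertain.

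**Figure D4:**
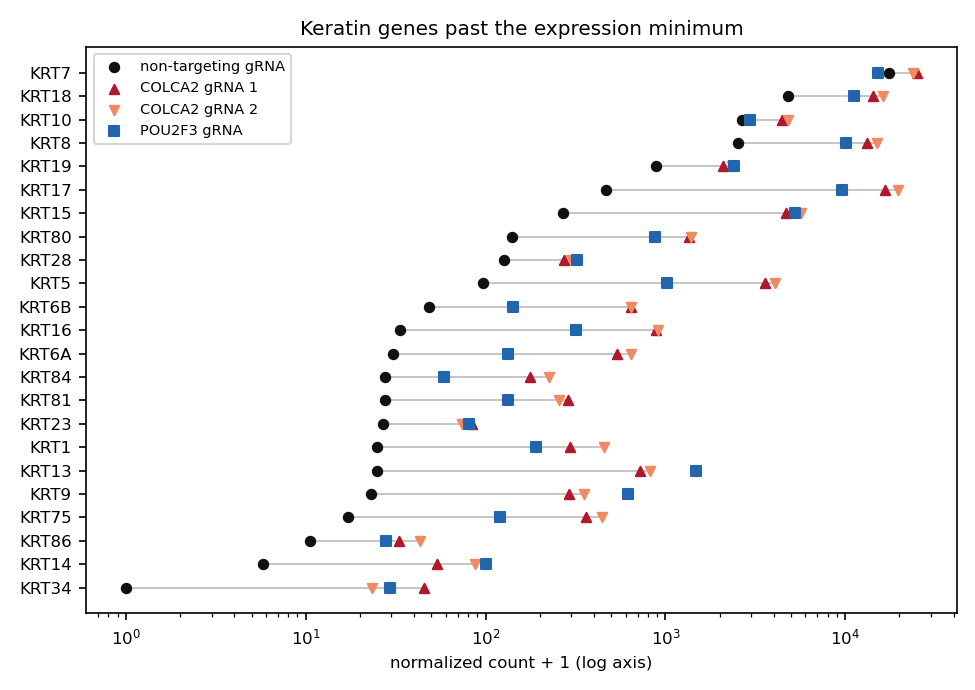
Normalized count plus 1 (x axis, log scale) of the 23 tested keratin genes in the 4 libraries, ordered by the level with the non-targeting gRNA; symbols as in the plot of tuft-type and basal genes. Both COLCA2 libraries lie above the control for every gene, by less than 2-fold for KRT7 and KRT10.

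S100 proteins, small calcium-binding proteins that squamous and inflamed epithelia make in quantity, rose in 10 of 11 tested members, out of 19 found. Of all genes 5.79% rose. Only 6 of the 11 had at least 20 normalized counts in the control, and 5 of those rose. S100A2 rose from 43.9 to 809.7 and 888 and S100A9, a subunit of calprotectin, from 26.7 to 585 and 719.7. S100A14 rose from 4.77 to 176 and 186. S100A8, the other calprotectin subunit, rose from 7.64 to 218 and 225. The tested members had a median of 4.01 and all 19 one of 3.15. S100A1 was the member that was not called.

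Serine protease inhibitors of the SERPINB family rose in 6 of 10 tested members and none fell, beside 5.79% and 2.02% of all genes. Of the 5 with at least 20 normalized counts in the control, 2 rose. SERPINB2, which inhibits plasminogen activators, rose from 8.59 to 501 and 662, a ratio of 5.91 ± 0.28. SERPINB5 (maspin) rose from 138 to 419.9 and 557. SERPINB7 was listed at 0 in the control and stood at 96.4 and 132 with the guides. With the control set at 3 reads these levels were 33.7-fold and 46.0-fold higher. The exact 95% lower limits were 26.8-fold and 36.8-fold. SERPINB3 and SERPINB4 are near-identical and their split is uncertain. The antiproteases SLPI and PI3 (elafin) of airway and skin secretions also rose, SLPI from 15.3 to 687 and 871 and PI3 from 4.77 to 224 and 294.

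Annexins, membrane-binding proteins, divided. Of 10 tested members 5 rose and none fell, beside 5.79% and 2.02% of all genes. Of the 9 with at least 20 in the control 4 rose. ANXA2 rose from 9353 to 34822 and 37577 and ANXA3 from 1258 to 3158 and 3291. ANXA8L1, read 3 times in the control, was 117 (95% exact interval 39.8 to 572) and 87.4 (29.5 to 427) times the control, although its copy ANXA8 can share its reads. ANXA1 and ANXA4 had mean ratios below 0, at -0.49 ± 0.028 and -0.86 ± 0.077, and were not called.

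Genes of the YAP and TEAD pathway formed a second group of rises. YAP is a coactivator that reads cell shape and tension, and TEAD factors carry it to DNA. All 20 listed genes were tested, 9 rose and none fell, beside 5.79% and 2.02% of all genes. The list median was 0.80. Of the 19 with at least 20 in the control, 8 rose. YAP1 itself rose from 776 to 2795 and 3475. ANKRD1 rose from 102 to 2453 and 2584 and CCN2 (CTGF) from 1159 to 10015 and 12567, both standard targets of the pathway. AXL, a receptor tyrosine kinase, rose from 9.55 to 192 and 246, and F3 (tissue factor) from 114 to 1308 and 1435. Both COLCA2 libraries lay far above the control for ANKRD1, AXL and F3.

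Of 25 tested contractile and caveolar genes 18 rose and none fell, beside 5.79% and 2.02% of all genes. The list median was 1.45, and of the 24 with at least 20 in the control 17 rose. TAGLN, an actin-binding protein of smooth muscle, rose from 108 to 2742 and 2897 and CNN1 (calponin) from 140.4 to 2030.0 and 2078. CAV1 (caveolin) rose from 33.4 to 434 and 510.4 and CAVIN1, its coat partner, from 1229 to 6013 and 6337. The smooth muscle actin gene ACTA2 rose from 539 to 2573 and 2677. ACTB, counted with the reference genes, went from 69309 to 119035 and 117908, a ratio of 0.77 ± 0.0097 that was not called.

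AP-1 and early response factors did not share a direction. FOSL1, an AP-1 subunit of invasive epithelial cells, rose from 29.6 to 424 and 430.4 and FOSL2 from 779 to 6014 and 6447. MAFF and IER3 also rose. EGR1 fell, and BATF3, a leucine zipper partner of JUN, fell from 1493 to 599 and 495. Of 16 tested genes 4 rose and 2 fell, beside 5.79% and 2.02% of all genes. Among 619 higher genes with a promoter in the table, 8.72% held TGANTCA on either strand, and 6.37% of 204 lower genes did, against 4.68% of tested genes and 7.76% of all promoters. The windows searched run from 250 bases before to 50 after the gene's start, 300 bases in all.

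The octamer ATGCAAAT was searched on both strands in the same way. It lay in 11 of 204 promoters of genes that fell (5.39%), in 9 of 619 of genes that rose (1.45%), in 162 of 11351 of tested genes (1.43%) and in 1.80% of all 27305 promoters. The TEAD motif GGAATG lay in 10.3% of promoters of genes that fell, in 13.9% of those that rose and in 10.8% of those tested. Only 67.5% of the genes that fell and 71.6% of those that rose had an entry in the table, under the 80% needed, so the comparison is void and the shares are a description. The 11 genes that fell with an octamer were HMX2, SUCNR1, FGF12, NRG3, HTR3E, SFRP2, SPRR2A, CORO2B, ZNF430 and the histone genes HIST1H2AE and HIST1H2BG. No promoter entry was found for POU2F3, C11orf53 and ALOX5.

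Mesenchymal genes rose in 12 of 19 tested members and none fell, beside 5.79% and 2.02% of all genes. The list median was 1.32. Of the 16 with at least 20 in the control, 10 rose. One of the 12 was CDH1, the epithelial cadherin, whose loss is a textbook sign of mesenchymal transition; it rose from 747 to 2351 and 2537. THBS1, a matrix glycoprotein and target of TGF-beta and YAP, rose from 2026 to 20158 and 22791. FN1 (fibronectin) rose from 9408 to 22440.5 and 24711 and CD44, a hyaluronan receptor, from 365 to 3327 and 3509.

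Proteases, laminins and collagens gave more rises than falls. Of 13 tested genes of plasminogen activation and related proteases 7 rose and none fell, beside 5.79% and 2.02% of all genes. Of the 9 with at least 20 in the control 4 rose. The median was 1.92 over the tested genes and 0.55 over all 18. CPA4 rose from 56.3 to 2389.7 and 2619, a ratio of 5.45 ± 0.093, and PLAU (urokinase) from 342 to 5055 and 5901, while the urokinase receptor gene PLAUR went from 487 to 333 and 345 and was not called. Metalloproteinases and their inhibitors held 12 rises and no fall among 40 tested genes, beside 5.79% and 2.02% of all genes. Of these rises 8 were among the 35 with at least 20 in the control. TIMP3 rose from 94.5 to 1365 and 1536 and ADAMTS1 from 201 to 2294 and 2491. LAMB3, a chain of the epithelial laminin of basement membranes, rose from 137 to 2474 and 2753. Integrin and laminin genes, LAMB3 among them, held 6 rises among 34 tested, beside 5.79% of all genes. COL17A1, the hemidesmosomal collagen of basal cells, rose from 39.2 to 529.8 and 890.3, and COL12A1 from 710.5 to 10065 and 12316. Collagens in all gave 9 rises and 2 falls among 32 tested genes, beside 5.79% and 2.02% of all genes. Among the 28 with at least 20 in the control there were 6 and 2, the falls being COL2A1 and COL11A1.

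Secreted regulators of growth changed in several families. In the insulin-like growth factor axis 6 of 16 tested genes rose and none fell, beside 5.79% and 2.02% of all genes. IGFBP5, a binding protein for these factors, rose from 957 to 21198 and 25747 and IGFBP3 from 1177 to 16666 and 20738, while IGF1R, their receptor, rose from 138 to 416 and 477. In the TGF-beta and BMP list 9 of 23 rose and 2 fell, beside the same shares of all genes. FST (follistatin), which traps activin, rose from 72.6 to 1875 and 2129, and INHBA, the activin subunit, from 38.2 to 514 and 623. NOG (noggin), which traps BMPs, fell from 589 to 172 and 138, and BMP2 from 4892 to 2228 and 1962.

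Wnt ligands were among the rises as well. Of 20 tested genes of the Wnt list 9 rose and none fell, beside 5.79% and 2.02% of all genes. The list median was 0.63, and of the 19 with at least 20 in the control 8 rose. WNT7B rose from 243 to 1799.8 and 1761 and WNT5A from 385 to 2134 and 2454. DKK1, a secreted Wnt inhibitor, rose from 167 to 733 and 779.7. In the Notch list HES1, a repressor and target of the pathway, rose from 1205 to 5700.1 and 5868 and JAG1, a ligand, from 1166 to 3233 and 3191, whereas the ligand DLL1 fell from 1583 to 724 and 628.

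Cytokine and NF-kB genes rose in 12 of 18 tested members, out of 26 found, and none fell, beside 5.79% and 2.02% of all genes. Of the 13 with at least 20 in the control, 7 rose. LIF, a cytokine of the IL-6 family, rose from 147 to 1717 and 1853. IL32 rose from 48.7 to 701 and 681 and CXCL8, a neutrophil chemokine, from 30.6 to 272 and 343. TNFAIP3 (A20), which limits NF-kB signalling, rose from 375 to 1716 and 1799. IL6 was read 2 times in the control, 70 times with gRNA 1 and 67 times with gRNA 2, and with gRNA 1 its level was 38.0 times the control (10.1 to 319.9). CASP1, the inflammasome protease that cuts IL-18, rose from 4.77 to 174 and 148. The tested members had a median of 1.93 and all 26 one of 1.13. Interferon-stimulated genes rose in 6 of 28, beside 5.79% of all genes, and in 5 of the 27 with at least 20 in the control. No gene of MHC class I presentation was called among 17.

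Detoxification genes, many of them targets of NRF2, rose in 11 of 26 tested members and none fell. Of all genes 5.79% rose and 2.02% fell, and the list median was 0.91. Of the 24 with at least 20 in the control, 9 rose. ALDH3A1, an aldehyde dehydrogenase, rose from 30.6 to 603 and 759. NQO1, a quinone reductase and standard NRF2 target, rose from 889 to 3202 and 3327 and HMOX1 (heme oxygenase) from 181 to 814 and 756. AKR1C2 rose from 85.9 to 1714 and 2028, but AKR1C1, AKR1C2 and AKR1C3 are close copies and their split is uncertain. UGT1A6 and UGT1A7 were listed at 0 in the control and share exons with each other.

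Growth and survival genes gave a few calls. CDKN1A (p21), an inhibitor of cyclin-dependent kinases, rose from 1166 to 4718 and 5184, and CDKN2B (p15) from 215 to 1078 and 1267. CCND1 (cyclin D1) rose from 719 to 1461 and 1474, barely past 2-fold. Of 20 tested cell cycle regulators these 3 rose and none fell, beside 5.79% and 2.02% of all genes. GDF15, a stress-induced cytokine counted with the p53 targets, rose from 82.1 to 1179.8 and 1279.5, one of 4 rises among 20. In the BCL2 family 2 of 15 tested genes rose and none fell, beside 5.79% and 2.02% of all genes. BCL2L1 (BCL-xL), which blocks cell death, rose from 1454 to 3469 and 3535. BMF, which promotes it, rose from 747 to 1614 and 1911.

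**Figure D5:**
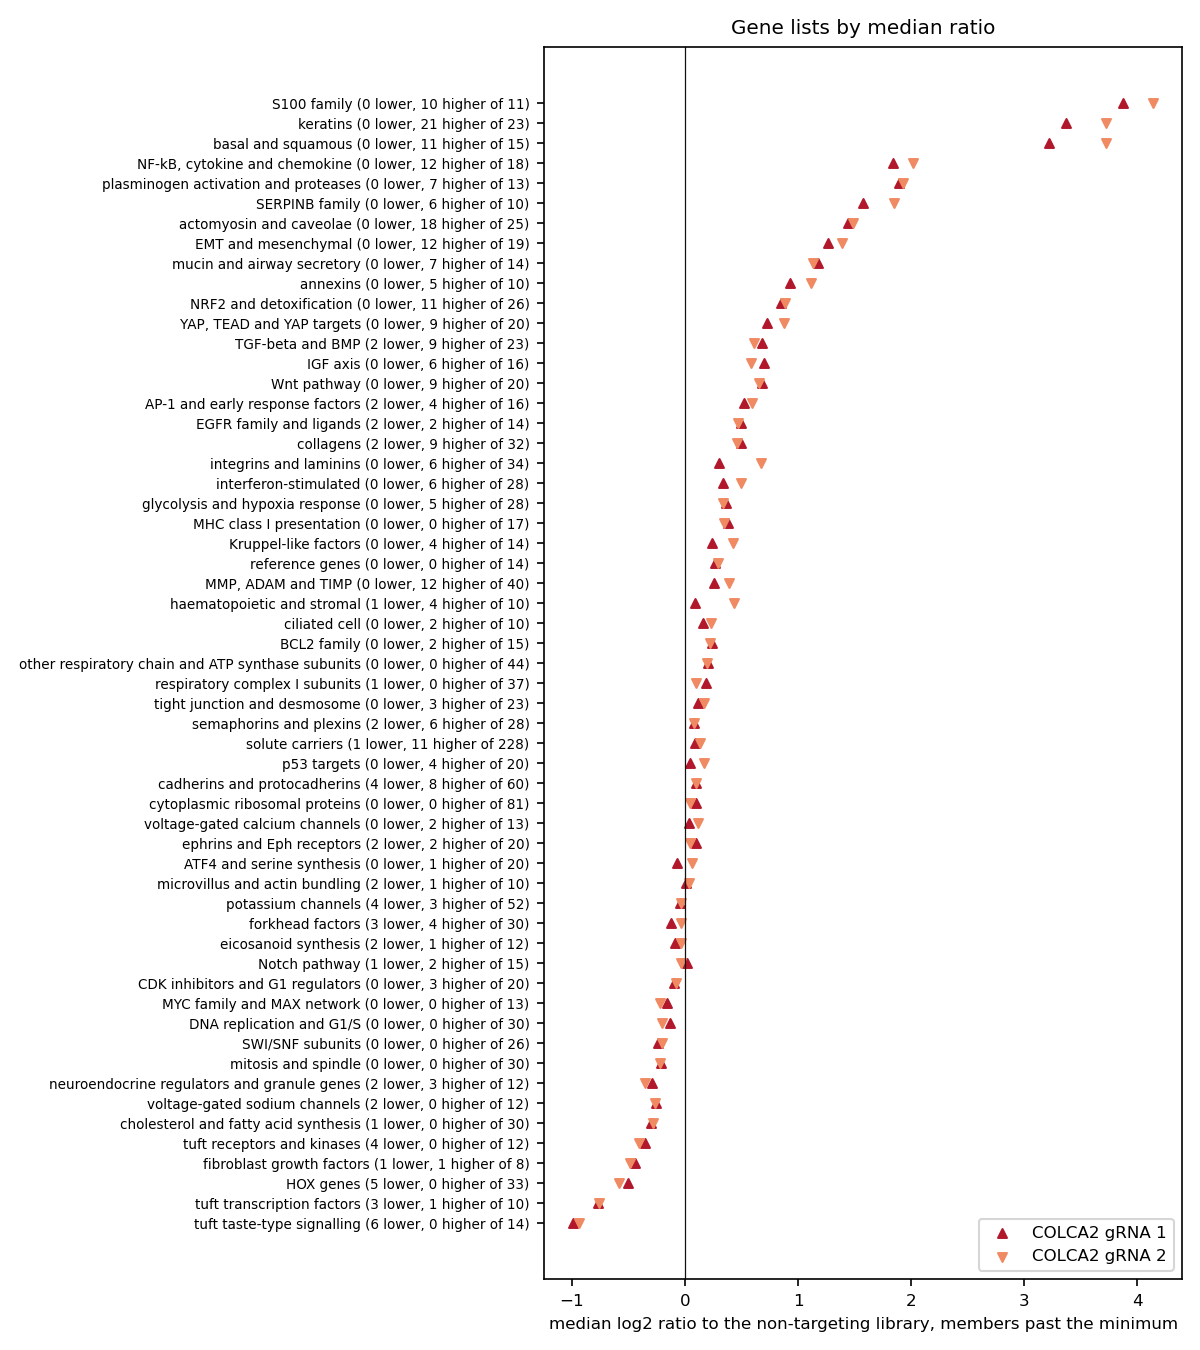
Median log2 ratio to the non-targeting library (x axis) over the tested members of each gene list with 8 or more of them (y axis), for COLCA2 gRNA 1 (triangles pointing up) and gRNA 2 (pointing down), with the number of members lower and higher by the 2-fold rule. S100 genes, keratins and basal genes lie highest and taste-type signalling genes and tuft transcription factors lowest.

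Housekeeping and proliferation lists held almost no calls. None of 30 DNA replication genes, 30 mitosis genes, 13 MYC network genes, 26 SWI/SNF subunits, 81 ribosomal protein genes and 14 reference genes was called, and medians lay between -0.22 for mitosis and 0.27 for reference genes. SCD, a fatty acid desaturase, fell from 15816 to 7431 and 7282 as the single call among 30 genes of cholesterol and fatty acid synthesis.

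Markers of other cell types were measured beside the basal rise. Secretory and mucin markers rose in 7 of 14 tested genes, beside 5.79% of all genes. Among the 9 with at least 20 normalized counts in the control, only 2 rose. The list median was 1.17 over the tested genes and 0.10 over all 24. Summed levels were 1535 normalized counts in the control and 3893 and 4116 with the guides. SCGB1A1 and TFF1 were at 0 in all libraries. Ciliated cell markers summed to 15020.0 in the control and to 18803 and 18462, and TEKT1 was at 0 throughout. FOXJ1, the ciliogenesis factor, rose from 43.0 to 196 and 226. Alveolar markers summed to 2655, 2651 and 2607, and SFTPC, the defining surfactant gene, had at most 0.955 normalized counts. Of 7 tested alveolar markers 2 rose, beside 5.79% of all genes. They were CAV1, given above, and HOPX, from 42.0 to 166 and 216. Haematopoietic and stromal markers summed to 1618, 2473 and 2160.4. In that list CD3E was at 0 throughout and PTPRC (CD45) stood at 16.2, 8.29 and 9.41. Of 10 tested members 4 rose and 1 fell, beside 5.79% and 2.02% of all genes. Among the 9 with at least 20 in the control, 3 rose and 1 fell. The stromal genes COL3A1, LUM and PDGFRB rose, COL3A1 from 47.7 to 412 and 363, LUM from 14.3 to 233 and 201 and PDGFRB from 22.9 to 187 and 120.0. CD68, a macrophage marker, rose from 72.6 to 209 and 199.9, and VWF, an endothelial gene, fell from 43.9 to 17.6 and 21.2. The part of other cells in these rises was not tested.

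The guides differed less from each other than from the control, and the genes on which they differed were mainly scarce. Of 14940 genes 331 were at least 2-fold apart between the guides (2.22%), 157 with gRNA 1 above (1.05%) and 174 with gRNA 1 below (1.16%), and 277 of the 331 had a mean under 100. No gene with a mean of 1000 or more was among them. Each guide alone called more genes: 477 lower and 962 higher with gRNA 1 (3.19% and 6.44%), and 544 and 1083 with gRNA 2 (3.64% and 7.25%). With the guides changed in opposite directions, each at least 2-fold, there were 6 genes, named here for that reason: AL049697.1, ALDH3B2, ARHGAP20, BZW1P2, DHFRP1 and IKBKGP1.

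Some of the widest gaps between the guides touched genes of interest in their own right. COQ8B, a kinase of coenzyme Q synthesis, went from 572 to 571 and 159, so it matched the control with gRNA 1 only. ANKS1B, a postsynaptic adaptor, went from 405 to 236 and 55.3 and HOXB3 from 234 to 140.0 and 47.0, both lower with gRNA 2. CTSK (cathepsin K) went from 4.77 to 7.26 and 111 and AMMECR1L from 190.0 to 14.5 and 176, and in both only 1 guide passed 2-fold. AMMECR1L was at 0 in the POU2F3 gRNA library. The pseudogenes BZW1P2 and DHFRP1, listed at 0 with gRNA 1, can share reads with their parent genes.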

How the data were processed

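RNA-seq of 4 NCI-H1048 libraries was used, 3 of them in the comparison. The authors deposited a linear signal, normalized counts by gene row, per the file headers. Every library's values (100%) were multiples of 1 step within 0.01, so the deposited signal is whole-number counts divided by 1 factor for each library. These counts are called reads here. Whether they are counted reads or estimates rounded to whole numbers is not given in the sources used here. Salmon, DESeq2 and hg38 are named in the submitters' processing notes, without role or version, and the use of strand is not given in the sources used here. Separate cultures and batches are not named in the labels.

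Rows of 1 symbol were summed (38145 rows, 35979 symbols), genes with a mean of at least 20 were kept, and log2 ratios were taken with a pseudocount of 1. A call needed at least 2-fold with both guides. With 1 control library the calls rest on no test. Bounds for genes at 0 use 3 reads, which is a stand-in value and not a 95% limit. Intervals are exact at 95% and cover only counting error, as PCR copies were not removed by molecular identifiers that the sources name. The intervals take the recovered whole numbers as counted reads. Counts of 302 lower and 865 higher genes compare with 1128 and 1700 by edgeR's quasi-likelihood test on the recovered reads (TMM, Benjamini-Hochberg at 0.05), an alternative that rests on 1 residual degree of freedom.

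Members and gene lists were chosen with earlier results of these data known. Named genes are the POU2F factors and coactivators, the 20 largest changes in each direction where the higher side reached 100, the 10 largest where it reached 1000, ranked by the smaller change, up to 8 called members of each list in each direction, all members of lists of 10 or fewer, and the 5 widest gaps between guides in each direction. Other genes, such as TP63, KRT7, KRT8, ITPR1, PLAUR, ACTB, CRYAB and the markers below the minimum, were named after their values were seen. Positions come from GENCODE 29 (GRCh38) by gene identifier and promoters from RefSeq GRCh38.p14 by symbol, with 11351 of 14940 tested genes matched. A few members that the rule names are not reported here. Scripts were tested on simulated data. Other scalings, pseudocounts, minimums, thresholds, single rows, edgeR and each guide left out were tried as alternatives. Versions were R 4.3.3, edgeR 4.0.16, Python 3.11.15, pandas 2.3.3, numpy 2.4.6 and scipy 1.17.1.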

Additional observations from a re-analysis of the deposited data

How the results depend on the processing

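The count of genes lower with both COLCA2 guides was 302 and that of genes higher 865. Other scalings gave 300 to 349 lower and 803 to 863 higher, and shifted the all-gene median by up to 0.069 on the log2 scale. Without an expression minimum the counts were 1028 and 1857, and the number of genes at least 2-fold apart between the COLCA2 guides was 4668 instead of 331. A mean of at least 100 gave 177 lower and 580.0 higher genes, with 54 apart between the guides. A pseudocount of 10 gave 205 apart. At 4-fold the counts were 44, 346 and 66. edgeR's quasi-likelihood test at a Benjamini-Hochberg adjusted 0.05 called 1128 lower and 1700 higher, of which 253 and 769 were also called by the fold rule, with 1 residual degree of freedom, taken from the pair of guides. Leaving out 1 guide gave 477 to 544 lower and 962 to 1083 higher genes, the larger counts being those without gRNA 1. No paired analysis was possible because the labels pair neither COLCA2 library with the control library.

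Of 62 list medians, 9 changed sign under some alternative, none of them from a median of 1 or more in size. With equal totals, ribosomal protein genes went from a median of 0.063 to -0.0066. Of 306 named genes 6 changed sign, among them POU2AF1, PRX, BZW1P2, DHFRP1 and UGT1A1. Without COLCA2 gRNA 1, BZW1P2 stood at 2.04 and DHFRP1 at 1.44. The guides are 2 libraries and the control is 1, so the spread of the control is unknown. Scarce genes differed more often between the guides: 9.96% of genes with a mean of 20 to 100 were 2-fold apart. Of those with a mean of 100 to 1000, 0.864% were.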

Other observations

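Kruppel-like factors gave 4 rises and no fall among 14 tested genes, beside 5.79% and 2.02% of all genes. KLF5, a factor of proliferating epithelium, rose from 649 to 2521 and 2519 and KLF10, induced by TGF-beta, from 623 to 1651 and 1948. KLF6 rose from 1997 to 5287 and 5613.

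Guidance receptors and ligands moved in both directions. Of 28 tested semaphorin and plexin genes 6 rose and 2 fell, beside 5.79% and 2.02% of all genes. Among the 26 with at least 20 in the control, 4 rose and 2 fell. SEMA3C rose from 70.7 to 386 and 423, while PLXNC1 fell from 2152 to 689 and 579 and SEMA6A from 1827 to 575 and 441. Ephrins and their receptors held 2 rises and 2 falls among 20 tested genes, beside 5.79% and 2.02% of all genes. EPHA2, a receptor of epithelial cells, rose from 563 to 3252 and 3352, whereas EFNB2, a ligand, fell from 7215 to 3506 and 3127.

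Adhesion genes were called in both directions. Tight junction and desmosome genes rose in 3 of 23 tested members, beside 5.79% of all genes. These rises were led by CLDN4, a claudin, which rose from 296 to 3121 and 3588. Cadherins and protocadherins held 8 rises and 4 falls among 60, beside 5.79% and 2.02% of all genes. Among the 56 with at least 20 in the control there were 6 rises and 4 falls. PCDH7 rose from 255 to 2714 and 3543 and CDH22 fell from 1775 to 513 and 408.

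In the glycolysis and hypoxia list 5 of 28 tested genes rose and none fell, beside 5.79% and 2.02% of all genes. CA12, a carbonic anhydrase, rose from 155 to 949 and 1123, and ADM (adrenomedullin), a vasodilator peptide, from 265 to 1239 and 1450.1. Solute carriers held 11 rises and 1 fall among 228 tested genes, beside 5.79% and 2.02% of all genes. Among the 218 with at least 20 in the control there were 6 rises and 1 fall. Of 13 voltage-gated calcium channel genes 2 rose, beside 5.79% of all genes. They were CACNA2D3, from 24.8 to 156 and 146, and CACNG4, from 14.3 to 45.6 and 43.5. Among the 12 with at least 20 in the control, 1 rose. In the ATF4 list CEBPB was the single call among 20 genes and rose from 928 to 3592 and 3808. None of 44 other respiratory chain and ATP synthase genes was called. In the EGFR family NRG1 rose from 140.4 to 336 and 426 and NRG3 fell from 429.7 to 149 and 141. Forkhead genes held 4 rises and 3 falls among 30, beside 5.79% and 2.02% of all genes. Among the 28 with at least 20 in the control, 2 rose and 3 fell.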
